A study of Homo sapiens with 54 samples.

Results

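The 10 genes described here encode the core of the BCL2 family, the proteins that set whether a cell keeps or loses its mitochondrial outer membrane. They were chosen by name, as 5 BH3-only genes (BBC3, PMAIP1, BCL2L11, BID and BMF), 2 effector genes (BAX and BAK1) and 3 survival genes (BCL2, BCL2L1 and MCL1), out of 27043 genes in the transcript tables. All 10 were listed in every library, and all 10 had a mean of at least 1 TPM (a level scaled for transcript length and library total) in the 24 h and tumor comparisons. The cells are RH4, an established line of fusion-positive rhabdomyosarcoma (FP-RMS), a muscle-lineage tumor driven by the PAX3-FOXO1 fusion. The study treated them with P3FI-63, a compound found in a screen for loss of PAX3-FOXO1 activity, or with its analog P3FI-90, and asked among other things whether treated cells turn on apoptosis genes.

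Proteins of this family act through a balance of binding. BH3-only proteins are made or activated under stress and bind the survival proteins, and some also bind the effectors directly. Free BAX and BAK1 then assemble into pores in the outer mitochondrial membrane, cytochrome c leaves, and caspases are activated, so the transcript levels of BH3-only and survival genes are widely followed when a compound kills tumor cells.

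All libraries came from RH4 cells. Cultured cells were given DMSO (3 libraries), P3FI-90 (3 libraries) or P3FI-63 at 10 µM (2 libraries), each for 24 h. The P3FI-90 dose was 1 µM in 2 labels, while the title of replicate 1 says lo and gives no number. The title of the 6 h P3FI-90 library also says lo. Whether replicate 1 had the dose of the other replicates cannot be told from the labels. Tumors grown from RH4 cells in NSG mice, which lack most of their own lymphocytes, were taken after 5 days of DMSO or P3FI-90, with 2 tumors per group, each from a different mouse. The labels give their tissue as muscle, and the study's methods describe tumors under the skin, with no age stated for these mice. Single libraries were made for DMSO and P3FI-90 at 6 h, for 7 screen compounds and their DMSO control (24 h in the labels, 6 h in the study's methods), and for scrambled or non-targeting controls at 48 h, 72 h and 7 days. Chromatin libraries at 24 h covered trimethylated histone H3 lysine 4 (H3K4me3) and the repressive mark H3K9me2, with 3 libraries per group each. They also covered the repressive mark H3K27me3, the heterochromatin protein HP1 and RNA polymerase II (Pol2), with 1 library per group and antibody. Labels gave the P3FI-90 dose as 1 µM for HP1, H3K4me3 replicates 3 and 4 and H3K9me2 replicates 3 and 5. Open chromatin (ATAC-seq) had 1 library each for DMSO and P3FI-63 at 10 µM, both at 4 h. For single cells, 1 library per group was taken at 16 h of DMSO or P3FI-90. The study's methods call replicate RNA samples biological, without saying how the cultures of the P3FI-63 pair were kept separate, so p-values measure the spread between these libraries. In bulk samples, fewer cells of a type and less RNA per cell cannot be told apart.

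The muscle-lineage markers were high in every bulk group, with sums of 3038 to 3618 TPM in DMSO at 24 h, 2876 to 3505 TPM in the P3FI-90 libraries, 1998 and 2218 TPM in those of P3FI-63, and 2596 to 3078 TPM in tumors. Of 12 markers of other cell types, 3 to 7 were at 0 in a library of the 24 h set, and only CD68 reached a mean of 1 TPM. Their sum was 47.5 and 19.5 TPM after P3FI-63 against 3.02 to 11.7 TPM in DMSO, nearly all of it CD68, and its part in the results was not tested. The 48 h scrambled library stood apart, with 118041 TPM of RPPH1, the RNA of ribonuclease P, and 52.7% of its TPM in coding genes against 95.5 to 96.6% in the other 23 libraries with all genes. In 2 further tables, which list coding genes only, the listed TPM made up 27.8% of the TPM scale for the 72 h scramble shRNA library and 96.67% for another 6 h DMSO library. P3FI-63 replicate 4 also stood apart from the other 24 h libraries on the first principal component (110.6 against -41.3 to 13.5), so calls and counts for P3FI-63 are also given without it.

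The windows below run from 250 bases before to 50 bases after a RefSeq start (GRCh38.p14), 5′ to 3′ on the strand of the gene. RefSeq gave 15 such windows for 9 of the 10 genes, all but MCL1. PMAIP1 and BMF are shown because they passed the test after P3FI-63, BBC3 and BCL2L11 because they passed 2-fold beside PMAIP1 in a screen library, and BAX as the more abundant effector. Capitals mark, on either strand, the GC box GGGCGG, the E-box CACGTG, the CCAAT box CCAAT and the forkhead motif GTAAACA.
PMAIP1, chr18:59899746-59900045, plus strand: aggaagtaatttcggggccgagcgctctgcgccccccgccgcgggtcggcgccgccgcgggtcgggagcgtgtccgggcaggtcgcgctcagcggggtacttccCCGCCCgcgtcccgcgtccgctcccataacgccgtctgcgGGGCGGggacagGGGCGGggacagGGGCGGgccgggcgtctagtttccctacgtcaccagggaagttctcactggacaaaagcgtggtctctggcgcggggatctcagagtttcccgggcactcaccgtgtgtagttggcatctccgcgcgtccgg
BMF, chr15:40108830-40109129, minus strand: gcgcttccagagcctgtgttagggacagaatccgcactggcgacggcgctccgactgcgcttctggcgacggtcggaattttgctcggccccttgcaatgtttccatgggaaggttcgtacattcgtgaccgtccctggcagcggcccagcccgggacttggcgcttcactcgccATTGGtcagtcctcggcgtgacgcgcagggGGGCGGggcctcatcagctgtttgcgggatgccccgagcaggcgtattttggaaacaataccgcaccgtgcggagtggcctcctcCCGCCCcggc
BBC3, chr19:47232618-47232917, minus strand: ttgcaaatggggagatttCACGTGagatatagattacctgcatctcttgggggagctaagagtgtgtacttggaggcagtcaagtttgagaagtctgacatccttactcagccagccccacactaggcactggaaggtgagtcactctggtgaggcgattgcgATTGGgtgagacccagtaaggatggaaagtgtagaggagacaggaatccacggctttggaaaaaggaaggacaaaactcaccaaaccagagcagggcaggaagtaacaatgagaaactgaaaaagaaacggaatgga
BCL2L11, chr2:111120664-111120963, plus strand: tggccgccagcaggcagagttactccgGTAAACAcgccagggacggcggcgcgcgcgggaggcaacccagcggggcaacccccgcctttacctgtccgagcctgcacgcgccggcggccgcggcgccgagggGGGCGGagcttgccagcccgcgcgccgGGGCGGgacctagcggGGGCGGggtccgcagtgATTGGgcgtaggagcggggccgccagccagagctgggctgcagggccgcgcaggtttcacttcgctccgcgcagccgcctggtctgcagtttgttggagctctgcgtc
BAX, chr19:48954625-48954924, plus strand: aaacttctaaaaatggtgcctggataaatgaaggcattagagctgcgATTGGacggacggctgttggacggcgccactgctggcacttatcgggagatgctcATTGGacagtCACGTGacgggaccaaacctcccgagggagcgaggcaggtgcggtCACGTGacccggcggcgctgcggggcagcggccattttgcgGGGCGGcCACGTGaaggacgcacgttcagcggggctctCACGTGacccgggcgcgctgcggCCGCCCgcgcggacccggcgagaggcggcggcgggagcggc

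GGGCGG stood in 10 of the 15 windows of the family and in 44.95% of all 35116 promoter windows of the same length. PMAIP1 held 4 of them in a window of 71.3% GC. The BAX window held CACGTG at 4 places, a motif found in 4 of the 15 windows and in 7.26% of all. CCAAT was in 5 of 15 and 34.61%, the forkhead motif GTAAACA in BCL2L11 alone and 3.42%, and TATAAA in 1 BCL2L1 window and 11.53%. The cAMP response element TGACGTCA (1.85% of all windows) and TTGCATCA, a core shared by ATF4 and C/EBP sites (0.87%), were in none of the 15. Some windows of BID overlap each other, as do 2 GGGCGG matches within 1 of them, and a match of letters describes the window only. The RefSeq starts were not matched to the gene starts used for peaks below. A window therefore need not lie at the start marked by H3K4me3 in these cells.

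In the files' build, GRCh37, the genes lie as follows. PMAIP1 spans chr18:57567228-57571537 and BBC3 chr19:47724079-47736023. BCL2L11 spans chr2:111876955-111926021, BID chr22:18216904-18257536 and BMF chr15:40380091-40401093. Among effectors BAX spans chr19:49458072-49465055 and BAK1 chr6:33540324-33548070. The survival genes are BCL2 at chr18:60790579-60987361, BCL2L1 at chr20:30252255-30311792 and MCL1 at chr1:150533371-150552214.

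By bulk TPM, RH4 cells in DMSO carried far more MCL1 and BAX transcript than any other member. TPM are scaled per transcript length, so levels can be set beside each other. In DMSO at 24 h the order was MCL1 (214 ± 57.6 TPM, SD, n = 3), BAX (210.1 ± 39.8), BMF (52.1 ± 8.71), BAK1 (43.2 ± 4.69), BID (36.6 ± 2.61), PMAIP1 (30.7 ± 11.4), BCL2L1 (17.3 ± 1.61), BCL2 (10.04 ± 2.1), BCL2L11 (8.71 ± 1.80) and BBC3 (2.28 ± 0.63). Neighbours in that order overlapped in their ranges, except BAX with BMF, BCL2L1 with BCL2, and BCL2L11 with BBC3. MCL1, a short-lived survival protein, was among the 2 highest members in 24 of 24 libraries and BAX in 23, the exception being the 48 h scrambled library, where PMAIP1 stood second. BBC3 was lowest in 19 libraries and BCL2 in the other 5. MCL1 alone made up 78.6 to 90.7% of the summed survival TPM (median 86.2%).

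BBC3, BMF and PMAIP1 had the widest fold spans over these 24 libraries and BCL2L1 the narrowest, or BAK1 once the 48 h scrambled library was left out. BBC3 ran from 1.11 to 11.5 TPM (median 2.69), a 10.3-fold span. BMF ran from 7.02 to 69.8 TPM (9.95-fold), PMAIP1 from 15.3 to 129 (8.42-fold), BCL2L11 from 4.79 to 33.7 (7.04-fold) and BID from 12.7 to 61.6 (4.86-fold). The highest PMAIP1 and the lowest BMF were both P3FI-63 libraries at 24 h, and the highest BBC3, BCL2L11 and BMF were the NP-005584 library of the screen. BAX spanned 34.2 to 269 TPM, but its low end was the 48 h scrambled library, and the span went from 7.87-fold to 2.33-fold without it. BAK1, MCL1, BCL2 and BCL2L1 spanned 1.82-, 2.27-, 3.49- and 2.08-fold without that library, and BBC3, BCL2L11 and BID 9.33-, 6.77- and 3.44-fold. In the 2 coding tables, which are not on the scale of the others, MCL1 was again the highest member (51.7 TPM in the 72 h scramble shRNA library and 254 TPM in 6 h DMSO) and BBC3 the lowest (1.76 and 1.82 TPM).

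**Figure D1:**
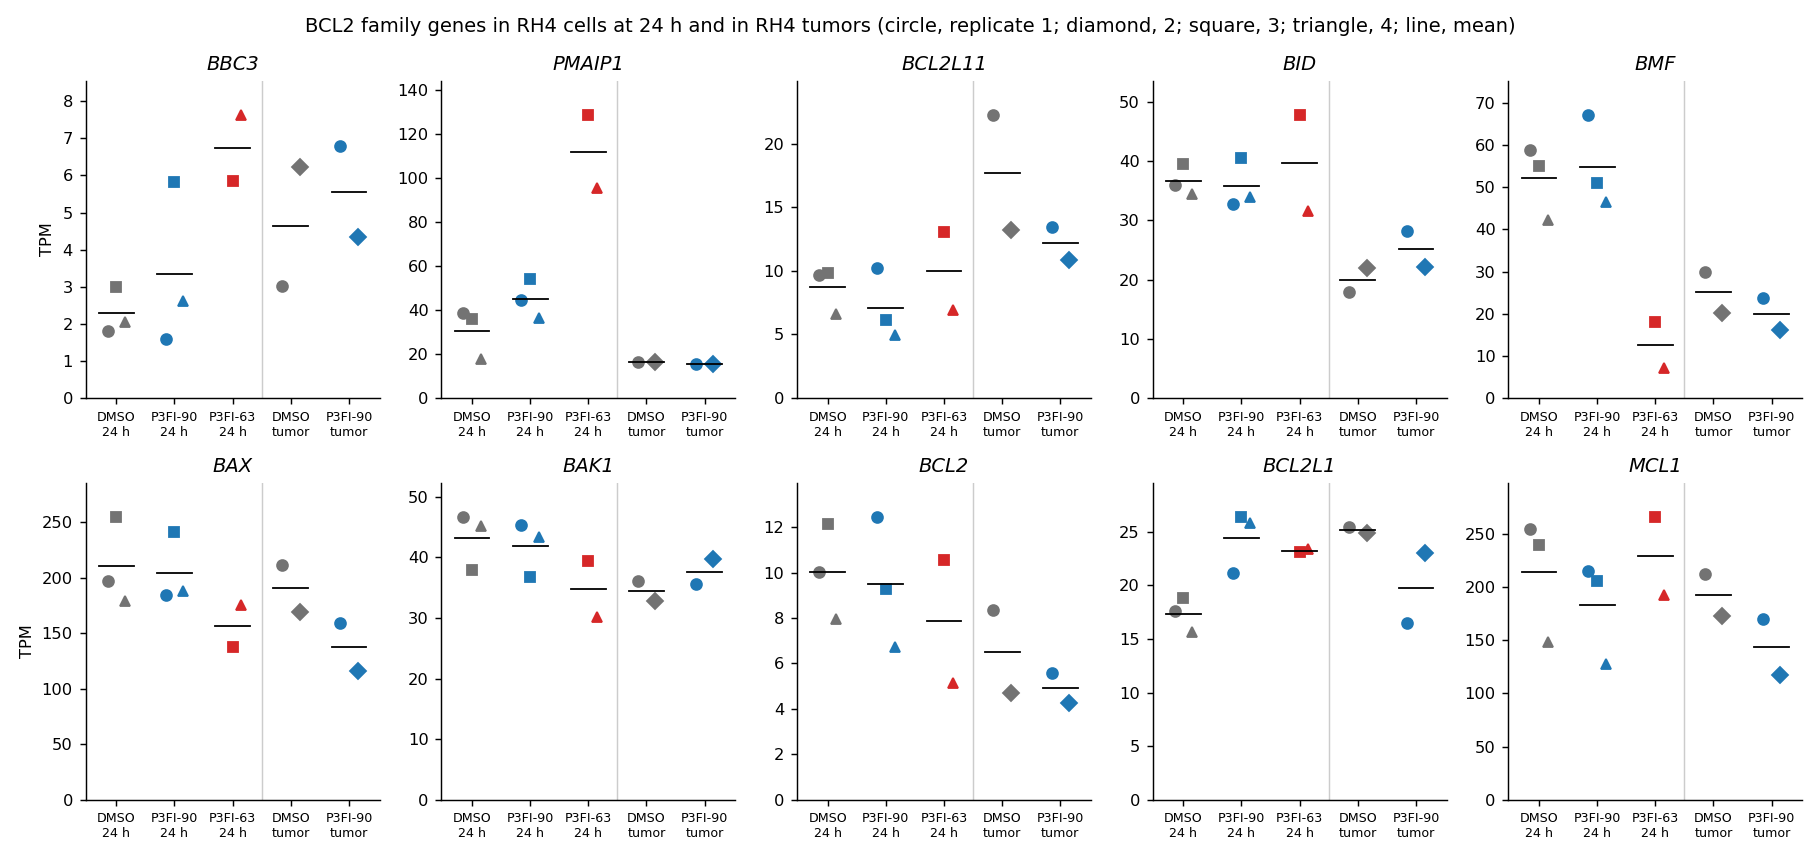
TPM of each of the 10 genes (vertical axis, linear from 0, 1 panel per gene) in the 24 h libraries and the tumors, by group along the horizontal axis, with 1 point per library shaped by replicate number and a line at the group mean. PMAIP1 is highest in the P3FI-63 libraries (129 and 95.4 TPM) and BMF lowest there (18.0 and 7.02 TPM).

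P3FI-63 at 10 µM moved PMAIP1 up and BMF down at 24 h, and no other member passed the test. PMAIP1 encodes NOXA, a BH3-only protein that binds MCL1 and favors its degradation. It was at 38.6, 35.8 and 17.6 TPM in DMSO and at 129 and 95.4 TPM after P3FI-63. Both treated libraries stood above all 3 controls, with a log2 change of 1.89 (SE 0.37, 95% interval 1.06 to 2.72, limma adjusted p = 0.0336).

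BMF encodes a BH3-only protein held at the cytoskeleton until stress frees it. It was at 58.9, 55.1 and 42.2 TPM in DMSO and at 18.0 and 7.02 TPM after P3FI-63, so it changed opposite to PMAIP1 with no overlap between the groups. The log2 change was -2.09 (SE 0.39, 95% interval -2.96 to -1.23, limma adjusted p = 0.0273). Of all 12332 genes tested, 292 passed, 2.37%, and 2 of the 10 members did.

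Both calls depended on the libraries in the fit. Without P3FI-63 replicate 4, the library that stood apart, PMAIP1 had a log2 change of 2.11 (limma adjusted p = 0.0528) and BMF -1.47 (0.0480). Without replicate 3 they had 1.68 (0.0221) and -2.71 (0.00187), with 4820 genes called in all. Leaving out any 1 DMSO or P3FI-90 library gave a limma adjusted p of 0.0584 to 0.0899 for PMAIP1 and 0.0528 to 0.124 for BMF, and fitting the 2 groups alone gave 0.124 and 0.119, at log2 changes of the same direction. With the sequencing run as a block, PMAIP1 was at 1.99 (0.00845) and BMF at -1.97 (0.0127).

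BBC3, which encodes PUMA, a strong activator of BAX and BAK1, was at 1.81, 3.0 and 2.04 TPM in DMSO and at 5.84 and 7.63 TPM after P3FI-63. The groups did not overlap, but the log2 change of 1.24 (SE 0.45, 95% interval 0.24 to 2.25) missed the threshold (limma adjusted p = 0.174) and passed under none of 14 alternatives. BCL2L11, encoding BIM, was at 9.66, 9.84 and 6.64 TPM against 13.1 and 6.92 TPM, and BID, which death receptor caspases cut into an active fragment, at 35.9, 39.5 and 34.4 against 47.8 and 31.7. Both overlapped, with log2 changes of 0.14 and 0.09.

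Neither effector passed the test after P3FI-63. BAX was at 197, 255 and 179 TPM in DMSO and at 137 and 175 TPM after P3FI-63, just apart, with a log2 change of -0.42 (limma adjusted p = 0.355). BAK1 was at 46.7, 37.9 and 45.1 TPM against 39.5 and 30.1 TPM (-0.31, limma adjusted p = 0.514). Its groups overlapped.

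The survival genes did not pass either. MCL1 was at 255, 239.5 and 148 TPM in DMSO and at 266 and 192 TPM after P3FI-63 (log2 change 0.12, limma adjusted p = 0.855). BCL2L1, which encodes BCL-XL, was at 17.6, 18.8 and 15.6 TPM against 23.1 and 23.4 TPM (0.41, 0.432), with both treated libraries above the controls. BCL2, the founding survival gene, was at 10.01, 12.2 and 7.95 TPM against 10.5 and 5.16 TPM (-0.37, 0.619). In all, 5 members did not overlap between the groups, BBC3, PMAIP1 and BCL2L1 above and BMF and BAX below, where 32.2% of all tested genes did not. Without replicate 4, 8 members did not overlap, against 62.0% of all genes, and the median log2 change was 0.37 over the members and 0.06 over all genes. With both libraries the median log2 change was 0.10 over the members and -0.35 over all genes, or 0.50 and 0.01 after scaling each library by its median ratio. Under that scaling PMAIP1 was at 2.31 and BMF at -1.71, both still called, while BAX, BAK1 and BCL2 moved to -0.0042, 0.094 and -0.0059 and BCL2L1 and MCL1 to 0.81 and 0.53, with no call.

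After P3FI-90 at 24 h, compared with the same 3 DMSO libraries, no member passed the test. Only 1 of 12332 genes passed (0.00811%). At an unadjusted p under 0.05 there were 244 genes and 0 members. This fit shares its estimate of spread with the P3FI-63 libraries, of which replicate 4 stood apart. With the 2 groups alone, 687 of 12188 genes and 1 member had an unadjusted limma p under 0.05. No member passed the adjusted threshold there either. PMAIP1 was at 44.4, 54.2 and 36.5 TPM after P3FI-90 against the 38.6, 35.8 and 17.6 TPM of DMSO, higher in 3 of 3 runs but overlapping between groups (log2 change 0.60, 95% interval -0.15 to 1.34, limma adjusted p = 1). BCL2L1 was at 21.1, 26.4 and 25.9 TPM against 17.6, 18.8 and 15.6 TPM, the only member without overlap (0.47, 95% interval -0.10 to 1.04, limma adjusted p = 1), where 11.9% of all genes did not overlap. With the run as a block their unadjusted p were 0.0220 and 0.0348 and the limma adjusted p 0.577 and 0.591, and over 14 alternatives the adjusted p ran from 0.425 to 1 for each.

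The other 8 members overlapped between P3FI-90 and DMSO, with smaller mean changes. BBC3 was at 1.58, 5.82 and 2.62 TPM (log2 change 0.30), with replicate 3 high and the other 2 within or below the range of DMSO. BCL2L11 (10.2, 6.14 and 4.98 TPM) had a change of -0.29 and MCL1 (215, 206 and 127 TPM) one of -0.23, lower in 3 of 3 runs (within-run log2 changes of -0.24, -0.22 and -0.22) but not called. BID, BMF, BAX, BAK1 and BCL2 lay within 0.10 of no change, BAK1 also lower in 3 of 3 runs. The share of all genes that moved 1 way in 3 of 3 runs, as PMAIP1, BCL2L1, MCL1 and BAK1 did, was not counted. BMF was at 67.1, 50.9 and 46.5 TPM after P3FI-90, beside the 18.0 and 7.02 TPM after P3FI-63, and since the doses differ the compounds were not tested against each other. Data of the same size were simulated with the P3FI-63 libraries in the fit. It found 4% of genes changed by 1 on the log2 scale and 82% of those changed by 2. A change like that of PMAIP1 was rarely detectable in that fit.

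The sum of BH3-only TPM over the sum of survival TPM was higher in the treated libraries. It was 0.514, 0.530 and 0.5997 in DMSO, 0.628, 0.653 and 0.779 in the P3FI-90 libraries and 0.712 and 0.673 after P3FI-63. The ratio was above every DMSO value in all 5 treated libraries, and it was given no test because the genes were chosen with earlier results known. Of single genes, 11.9% did not overlap between P3FI-90 and DMSO and 32.2% between P3FI-63 and DMSO. MCL1 made up most of the survival sum, and the BH3-only sum hides that BMF fell after P3FI-63 while PMAIP1 rose. In tumors the ratio was 0.364 and 0.386 in DMSO and 0.459 and 0.476 after P3FI-90, where 44.6% of single genes did not overlap.

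**Figure D2:**
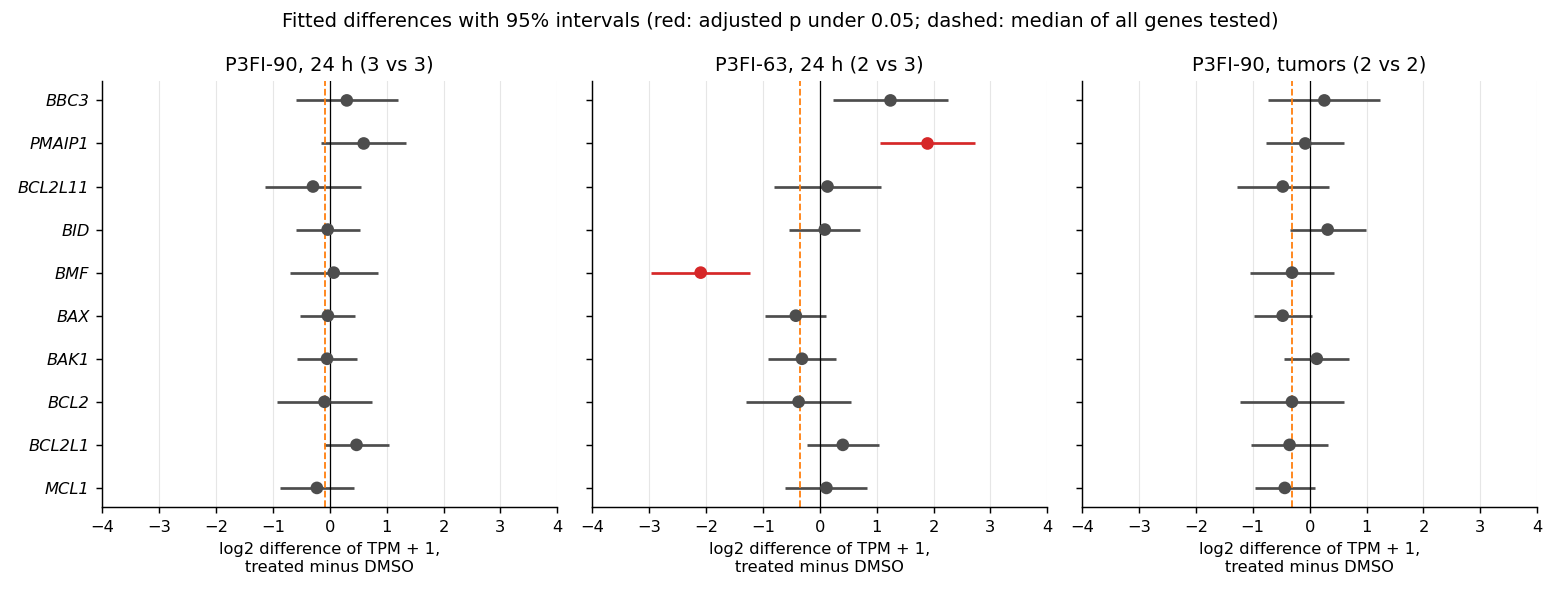
Log2 difference of TPM + 1, treated minus DMSO (horizontal axis), with its 95% interval from limma for each gene, for P3FI-90 and P3FI-63 at 24 h and P3FI-90 in tumors, with a dashed line at the median of all genes tested (-0.08, -0.35 and -0.30). In red are the differences past the adjusted threshold, PMAIP1 (1.89) and BMF (-2.09) after P3FI-63.

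No member passed the test in tumors after 5 days of P3FI-90, where 2 of 12357 genes passed (0.0162%). At an unadjusted p under 0.05 there were 849 genes and 0 members. BAX was at 212 and 169 TPM in DMSO tumors and at 159 and 116 TPM after P3FI-90 (log2 change -0.47, limma adjusted p = 0.573). MCL1 was at 213 and 172 TPM against 169.6 and 117 TPM (-0.44, 0.573), and BCL2L1 at 25.4 and 24.9 against 16.5 and 23.0 (-0.35). All of these lay below both controls, as did PMAIP1, at 16.6 and 16.2 TPM against 15.7 and 15.3 TPM (-0.08).

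BID stood just above both controls, at 28.3 and 22.1 TPM against 17.9 and 22.0 TPM (0.32). So 5 of 10 members did not overlap, where 44.6% of all genes did not, and the median change was -0.31 over the members and -0.30 over all genes. Scaled by the median ratio, BAX and MCL1 were at -0.14 and -0.10 and PMAIP1 turned to 0.24. Without the first P3FI-90 tumor, which leaves 1 treated tumor assumed to vary like the controls, BAX and MCL1 passed (-0.70 each, limma adjusted p = 0.0465 and 0.0464) among 1870 genes. Over 7 alternatives their adjusted p ran up to 1. Removal of mouse reads is not given in the sources used here.

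BBC3 overlapped in tumors, at 3.01 and 6.24 TPM against 6.79 and 4.33 TPM (log2 change 0.26). BCL2L11 was at 22.2 and 13.2 TPM against 13.5 and 10.8 TPM (-0.47), BMF at 29.9 and 20.3 against 23.8 and 16.2 (-0.31), and BCL2 at 8.35 and 4.69 against 5.56 and 4.27 (-0.31). BAK1, at 36.0 and 32.8 against 35.5 and 39.7 TPM (0.12), also overlapped.

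Genes around the family gave a context for these values. Of 7 other BCL2 family genes tested after P3FI-63, BNIP3, a mitochondrial receptor for autophagy that hypoxia raises, was the single one called, at 518 ± 395 TPM (n = 2) against 58.5 ± 11.4 (n = 3) in DMSO (log2 change 2.90, limma adjusted p = 0.0127), and it was called without replicate 4 (3.76, limma adjusted p = 0.00113). BIK, HRK, BCL2A1 and BCL2L14 had a median of 0 TPM over the libraries. Among 19 apoptosome, caspase and inhibitor genes, PARP1, a DNA repair enzyme cut by caspases, was the single one called, from a mean of 284 to 118 TPM (-1.28, limma adjusted p = 0.0288), a call lost without replicate 4 (-0.98, limma adjusted p = 0.0644). None of 10 pore and binding partner genes and none of 7 death receptor genes passed, with medians of -0.08 and -0.32, or 0.28 and 0.22 and again no call without replicate 4.

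Of 9 transcription regulators of BH3-only genes, 4 rose after P3FI-63 and none fell, with a median of 0.75. DDIT3 (CHOP), a stress factor that can raise BBC3 and BCL2L11, went from 29.7 to 521 TPM (log2 change 4.27, limma adjusted p = 0.00552). ATF3 went from 50.4 to 244 TPM (2.20, 0.00714) and ATF4, the main factor of the integrated stress response, from 290.4 to 921 TPM (1.73, 0.0308), and CEBPB, a C/EBP factor, rose by 2.16 (0.0200). Without replicate 4, DDIT3 and ATF3 were still called (limma adjusted p = 0.0253 and 0.0121) and ATF4 and CEBPB were not (0.0991 and 0.0514), at log2 changes of 4.17, 1.78, 1.70 and 2.03. Of 12 integrated stress response genes, some of them in the list above, 8 rose, with a median of 2.18. Without replicate 4 there were again 8, of which 6 were called in both fits, with a median of 2.57. In the muscle list MYOG, a driver of muscle differentiation, was the single one called of 8 (-2.06, limma adjusted p = 0.0177), and without replicate 4 it was called (-2.70, limma adjusted p = 0.00235) together with ACTC1, a cardiac actin.

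After P3FI-90 at 24 h, 1 of the 12 integrated stress response genes was called, and the list had a median log2 change of 1.41. Of the 12, 10 had an unadjusted limma p under 0.05, as did 244 of all 12332 genes. TRIB3, a target of ATF4 and CHOP, went from 24.4 to 217 TPM (log2 change 3.03, limma adjusted p = 0.0183), and DDIT3 was at 241 against 29.7 TPM (3.04, adjusted p = 0.426). No gene of the other BCL2 family, apoptosome, pore, death receptor or regulator lists passed, with medians of -0.09, -0.24, -0.23, 0.04 and 0.20, and none of any list passed in tumors.

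In the screen, 1 compound of 7 moved members past 2-fold. After NP-005584 BBC3 was at 11.5 TPM against 2.22 TPM in its DMSO library, PMAIP1 at 101 against 27.1 and BCL2L11 at 33.7 against 10.3 (log2 ratios 1.95, 1.85 and 1.62). Those 3 of 10 compare with 10.8% of all genes past 2-fold in either direction. BMF was also higher (69.8 against 38.0 TPM, 0.86), while BID was lower (18.6 against 35.3 TPM, -0.89), BCL2L1 lower (12.7 against 20.1, -0.62) and BCL2 lower (8.43 against 12.5, -0.52). BAX, BAK1 and MCL1 were within 0.16 of DMSO. The ratio of BH3-only to survival TPM was 1.03, the highest of the 24 libraries, against 0.520 in DMSO, and the summed muscle markers were at 1902 against 2938 TPM.

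The other 6 screen compounds had 0 of 10 members past 2-fold, where 3.1% of all genes passed after P3FI-63, 0.512% and 0.74% after the compounds named by digits alone (the lower number first), 0.455% after IMMLG-5770, 0.959% after KUC100517N and 0.878% after KUC102648N. In the P3FI-63 library BID was at 61.6 against 35.3 TPM (log2 ratio 0.79), PMAIP1 at 47.2 against 27.1 (0.78) and BMF at 25.9 against 38.0 (-0.54). PMAIP1 and BID were the highest against DMSO in that library and BMF the lowest. The 7 ratios share 1 DMSO library and none has a replicate check.

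At 6 h of P3FI-90, also 1 library each, 0 of 10 members passed 2-fold, where 4.54% of all genes did. BBC3 was at 2.7 against 1.23 TPM (log2 ratio 0.73, or 1.07 and past 2-fold with a pseudocount of 0.1 in place of 1) and BAX at 237 against 155 TPM (0.61). PMAIP1, at 25.8 against 30.2 TPM (-0.22), was not higher at this time. BMF was at 66.4 against 55.2 TPM, BID at 31.3 against 41.2 and MCL1 at 208 against 221.

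**Figure D3:**
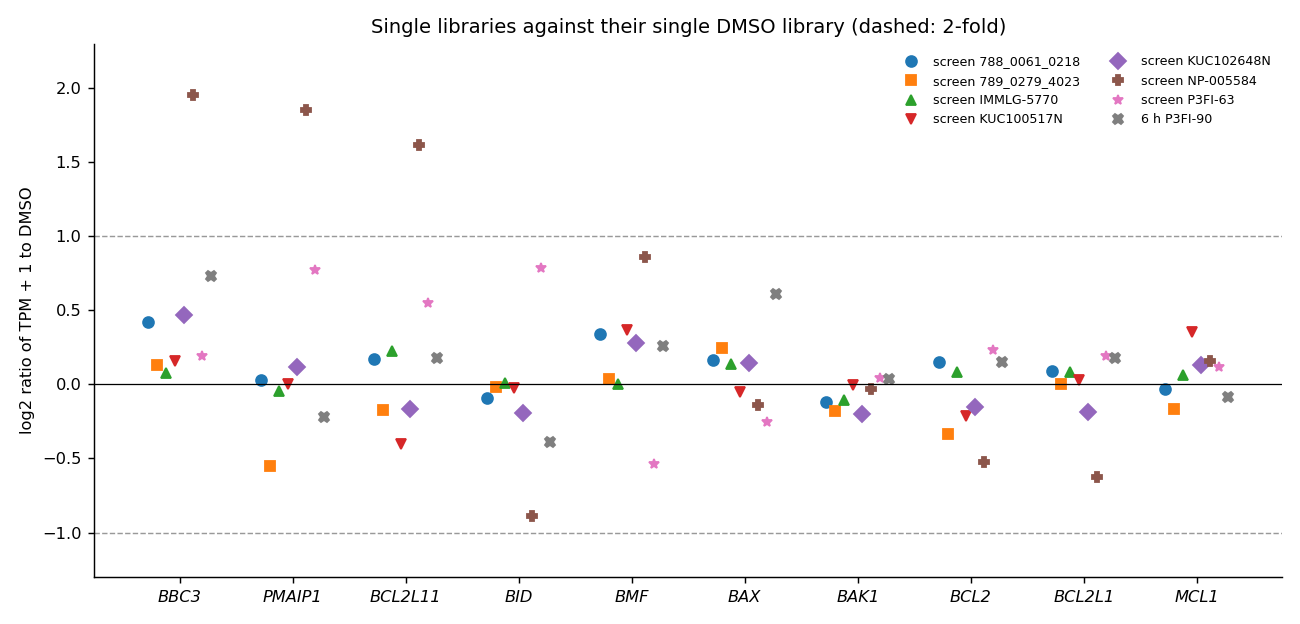
Log2 ratio of TPM + 1 to the DMSO library (vertical axis) for each gene (horizontal axis), 1 marker for each of 7 screen compounds and for 6 h of P3FI-90, 1 library each, with dashed lines at 2-fold. NP-005584 holds the 3 values past 2-fold, 1.95 for BBC3, 1.85 for PMAIP1 and 1.62 for BCL2L11.

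Over the 24 libraries each member was most like genes outside the family. By Pearson's r of log2(TPM + 1) over 12527 genes, the closest gene was NRIP3 for PMAIP1 (0.908), TRAK2 for BMF (0.947), BCL6 for BBC3 (0.832) and RAP1GAP for BCL2L11 (0.903). For the effectors it was ATP6AP1 for BAX (0.958) and C20orf24 for BAK1 (0.866), and for the survival genes FAM101B for BCL2 (0.931), ATP13A3 for MCL1 (0.921) and CEBPG for BCL2L1 (0.730). LINC00869 was closest to BID (0.895). Between members the highest r was 0.65, for BMF with BAK1, and PMAIP1 and BBC3 had 0.38. The libraries share runs and controls, and 1 library stands apart, so that without the 48 h scrambled library the closest gene was the same for BBC3, BCL2L11 and BMF only.

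H3K4me3, a mark of active starts, covered nearly all members in both groups. Within 2 kb of a GRCh37 gene start, 8 to 10 of the 10 members had a peak in a library, where 50.37 to 60.75% of 20136 coding starts did. Peak height is the MACS2 fold enrichment over the library's own background, and it differed more between replicates than between groups. At PMAIP1 it was 58.0, 8.44 and 31.6 in DMSO (replicates 1, 3 and 4) and 65.8, 8.80 and 37.9 after P3FI-90. At BMF it was 20.7, no peak and 25.9 against 67.7, 6.32 and 31.9, and at BBC3 42.1, 8.92 and 14.5 against 43.7, 16.0 and 20.9. Replicate 3 was lowest of its group and the groups overlapped at each of these starts. Each height is that of the highest peak near the start, which was not always the same peak in both groups. In replicate 1 the highest BBC3 peak lay at chr19:47733852-47734426 in DMSO and at chr19:47734554-47735094 after P3FI-90. In no library did the highest BBC3 peak span the annotated start of the gene.

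MCL1 and BCL2 carried the tallest peaks in 5 of the 6 libraries, and in P3FI-90 replicate 3 BBC3 stood between them. BCL2 was at 164, 15.5 and 53.4 in DMSO against 147, 13.9 and 75.4 after P3FI-90, and MCL1 at 136, 32.4 and 50.1 against 82.9, 29.9 and 86.7. BCL2L1 had a peak in replicates 1 and 4 only, at 47.4 and 8.13 against 40.3 and 22.2. The effectors were at 27.2, 7.45 and 10.6 against 32.5, 6.55 and 14.9 for BAX and 39.1, 10.7 and 22.9 against 40.4, 7.73 and 22.9 for BAK1. BCL2L11 was at 41.5, 3.56 and 7.65 against 41.0, 2.81 and 9.80, and BID at 22.7, 5.96 and 7.17 against 19.1, 6.27 and 8.09. The highest BCL2L11 peaks of replicates 1 and 4 did not overlap in place between DMSO and P3FI-90.

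Of the 8 members with a peak in all 6 libraries none was called by limma, where 0 of 9870 starts were (0.0%, with 0 at an unadjusted p under 0.05). Exact two-sided permutation p for single genes ran from 0.5 for BBC3 to 1, and 3 against 3 libraries cannot go below 0.1. With the replicate block 17 starts were called (0.172%) and no member, BBC3 having a log2 change of 0.47 (limma adjusted p = 0.906). Decreases of 1 and 2 on the log2 scale were simulated for each fit with a noise of its own. The fit without the block found 0% of either. The blocked fit, given the smaller noise left after the block, found 69% and 100%. The noise without the block mixed libraries of both groups, so the 2 simulations cannot be compared directly. Peak heights carry no spike-in scaling, so neither fit measured a rise shared by all starts.

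**Figure D4:**
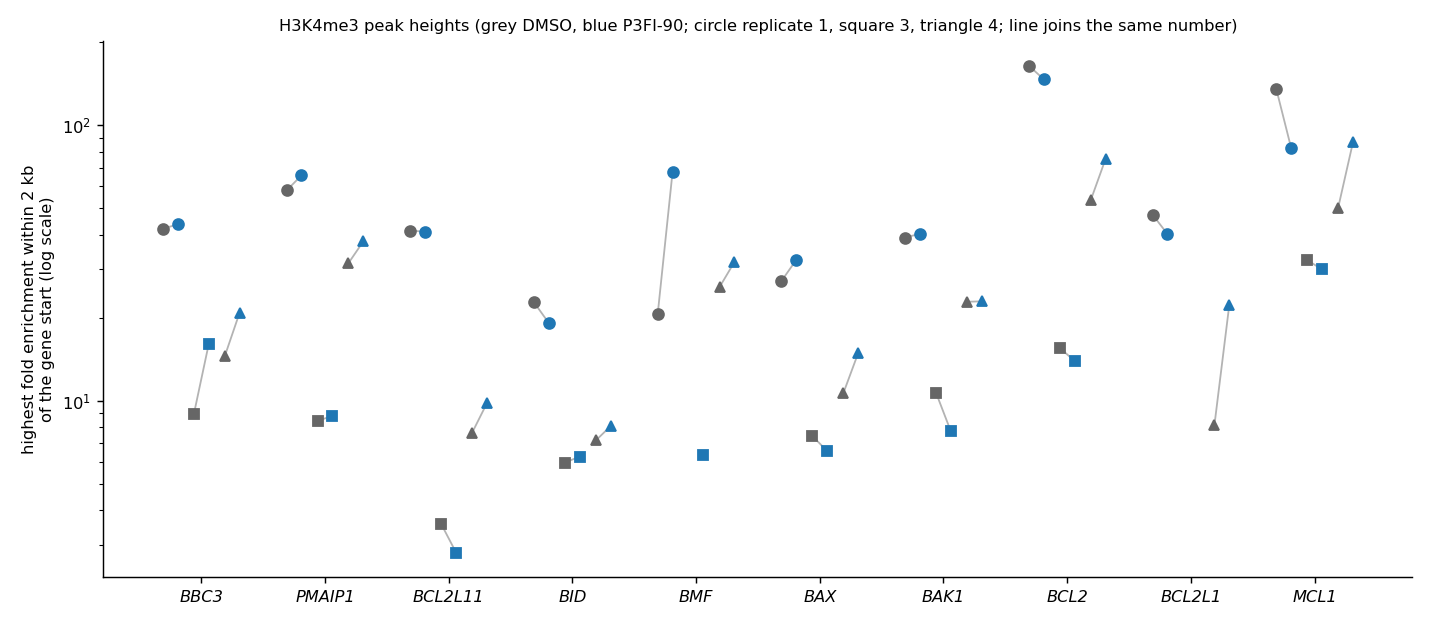
Highest H3K4me3 fold enrichment within 2 kb of each gene start (vertical axis, log scale) in the 3 DMSO (grey) and 3 P3FI-90 (blue) libraries, with marker shape for the replicate and lines joining the same replicate number. A line can join different peaks near the same start. PMAIP1 goes from 58.0, 8.44 and 31.6 to 65.8, 8.80 and 37.9, and no point is drawn where a library has no peak.

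Total Pol2 peaks over the members were absent after P3FI-90, and few were left over any gene. Each antibody has 1 library per group, so no test was possible, and total Pol2 peaks numbered 6031 in DMSO and 521 after P3FI-90. In DMSO 4 members had a total Pol2 peak over the gene, PMAIP1 (fold enrichment 4.54), BMF (7.72), BCL2L1 (7.36) and MCL1 (6.43). None had one after P3FI-90, and 90.75% of the 2217 genes with a control peak lost theirs.

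Pol2 phosphorylated at serine 5, the form found near starts, kept more of its peaks, 13691 in DMSO and 7484 after P3FI-90. MCL1 was at 34.9 against 30.7, PMAIP1 at 19.4 against 17.8, BCL2 at 16.3 against 14.4, BBC3 at 14.5 against 11.4 and BCL2L1 at 10.2 against 11.4. Peaks covered 236 bases of the PMAIP1 gene body in DMSO and 888 bases after P3FI-90, and 689 and 1015 bases within 2 kb of its start, with 2 peaks there in each library. BAX, at 7.56 in DMSO, had none after P3FI-90. That is 1 of 6 members lost against 39.98% of 8321 genes, and a median log2 ratio of -0.18 for members with both peaks against -0.40 for all genes with both.

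Pol2 phosphorylated at serine 2, the elongating form, had peaks at 3 members after P3FI-90 alone. BBC3 (8.08), PMAIP1 (7.63) and BCL2 (5.73) had a peak over the gene after P3FI-90 and none in DMSO, while 240 of 20136 genes gained one in all and 75.52% of 3052 lost theirs. Such peaks lay over 15.16% of all genes in DMSO and 4.9% after P3FI-90. With peaks of at least 20 on the −log10 p scale, BBC3 was the only member with one after P3FI-90. Over the MCL1 gene the highest peak went from 10.99 to 7.53, with 5434 and 1839 bases covered. Within 2 kb of its start the highest peak went the other way, from 6.62 to 7.53. The MCL1 span used for peaks, 18844 bases, is longer than that given with the TPM, chr1:150547027-150552214. BAX (4.83 in DMSO) had none after P3FI-90. Peaks fell from 10086 to 2268, and spike-in scaling is not part of the peak values.

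Repressive marks lay at few members' starts. H3K27me3 was at BMF in DMSO (4.20) and at BBC3 after P3FI-90 (2.84), where 35.05% and 39.95% of all starts had a peak. H3K9me2 in replicate 1 was at BMF (2.80) and MCL1 (3.29) in DMSO and at no member after P3FI-90, where 22.8% and 23.96% of all starts had one. In replicates 3 and 5 it was at no member's start in either group, where 0.48 to 6% of all starts had one. Over gene bodies it lay at 6 members in DMSO and 7 after P3FI-90 in replicate 1 (62.38% and 63.13% of all genes). Those counts were 4 and 3 in replicate 3 (19.82% and 12.14%) and 0 and 3 in replicate 5 (6.96% each). H3K27me3 lay over 6 members' bodies in each group (62.98% and 68.8%). HP1, a heterochromatin protein, lay over the gene bodies of 3 members in both libraries, BCL2L11 (3.32 in DMSO and 3.85 after P3FI-90), BCL2 (4.08 and 5.31) and BCL2L1 (3.62 and 5.17), and over 15.58% and 24.73% of all gene bodies. Its list grew from 23615 to 41771 peaks, and the median log2 ratio was 0.38 for these members and 0.18 for all genes with both peaks. These 3 members have the longest genes of the 10, at 49067, 196783 and 59538 bases. Counts and heights over gene bodies were not adjusted for length. Open chromatin after 4 h of P3FI-63 at 10 µM, by ATAC-seq with 1 library per group, was higher at BAX (16.0 against 11.1), BAK1 (15.9 against 11.9), BCL2L1 (19.1 against 13.7) and BBC3 (8.13 against 6.25) and close at PMAIP1 (14.6 against 13.6). BCL2L11 (8.69), BMF (8.82) and MCL1 (11.1) had a peak after P3FI-63 only, and BCL2 (7.53) in DMSO only. The treated list held 55987 peaks against 30221, 3424 starts gained one, and the median log2 ratio was 0.41 for members and 0.51 for all starts.

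The single-cell library at 16 h of P3FI-90 had more PMAIP1 and BBC3 and less MCL1 than that of DMSO, with 1 library per group and no test. After filters on genes and mitochondrial reads, 12542 of 13516 DMSO barcodes and 10456 of 11415 P3FI-90 barcodes remained, with 34 barcodes shared and median UMI counts of 8827 and 13256 per cell. No doublet caller was run. PMAIP1 was at 28.8 CPM (UMI counts scaled to the library total) in DMSO (95% Poisson interval 27.9 to 29.7) and 47.1 after P3FI-90 (46.0 to 48.2). BBC3 was at 2.94 (2.67 to 3.24) and 4.89 (4.54 to 5.25). Intervals cover counting error only.

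MCL1 was lower, at 72.5 CPM (71.1 to 73.9) in DMSO and 57.8 (56.6 to 59.0) after P3FI-90, and BAX was at 309 (306 to 311) and 279.1 (276 to 282). BCL2L11 was at 7.09 and 5.10, while BID (47.1 and 46.2), BMF (4.45 and 4.64), BAK1 (16.5 and 17.1), BCL2 (8.75 and 9.29) and BCL2L1 (9.29 and 10.2) had log2 ratios of -0.03 to 0.13. The log2 ratios of PMAIP1, BBC3, BCL2L11 and MCL1 were 0.71, 0.73, -0.47 and -0.33. In DMSO the order of members differed from that of bulk TPM at 24 h. BAX stood well above MCL1, MCL1 was nearer to BID, and BMF was below BCL2L1, BCL2 and BCL2L11. No member passed 2-fold, where 74 of 14058 genes did (0.526%). Summed over roles, BH3-only genes went from 90.3 to 108 CPM, effectors from 325 to 296 and survival genes from 90.6 to 77.2.

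The share of cells with a PMAIP1 UMI was 22.4% in DMSO and 38.5% after P3FI-90, and 10.8% and 16.5% once each cell was thinned to 4000 UMIs, which left out 3229 and 2110 shallower cells. For MCL1 the order turned with depth, from 46.2% and 47.1% unthinned to 25.3% and 20.2% thinned, the latter in the direction of its CPM. The share in cells that lack these genes was not measured. The leukocyte and endothelial markers PTPRC and PECAM1 had 0 UMIs in both.

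Within the P3FI-90 library, PMAIP1 was higher in cells with more integrated stress response transcripts. Cells were ranked by that list and split into 4 equal ranges. In the lowest range PMAIP1 was at 31.6 CPM and in the highest at 69.6, against 27.1 and 35.6 in DMSO. BBC3 was at 3.23 and 7.31 after P3FI-90 and at 2.47 and 3.82 in DMSO. BCL2L11 was at 6.08 and 3.86 after P3FI-90, but at 6.38 and 8.50 in DMSO, and MCL1 at 58.6 and 54.6 against 68.8 and 77.0. Median UMIs per cell were 11750.0 and 11522.5 in those ranges of the P3FI-90 library and 3456 and 7104 in DMSO, so only the P3FI-90 ranges were of like depth.

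The score is continuous, with list levels of 150.0 and 1237 CPM after P3FI-90 and 29.6 and 574 in DMSO, and 923 P3FI-90 and 1067 DMSO cells lay within 10% of the boundary of the highest range. By mitotic genes the P3FI-90 ranges were at 39.0 and 39.5 CPM of PMAIP1, and the DMSO ranges were at 26.9 and 21.2. DDIT3 was at 18.9 CPM in DMSO and 93.8 after P3FI-90, and TRIB3 at 11.1 and 30.8.

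**Figure D5:**
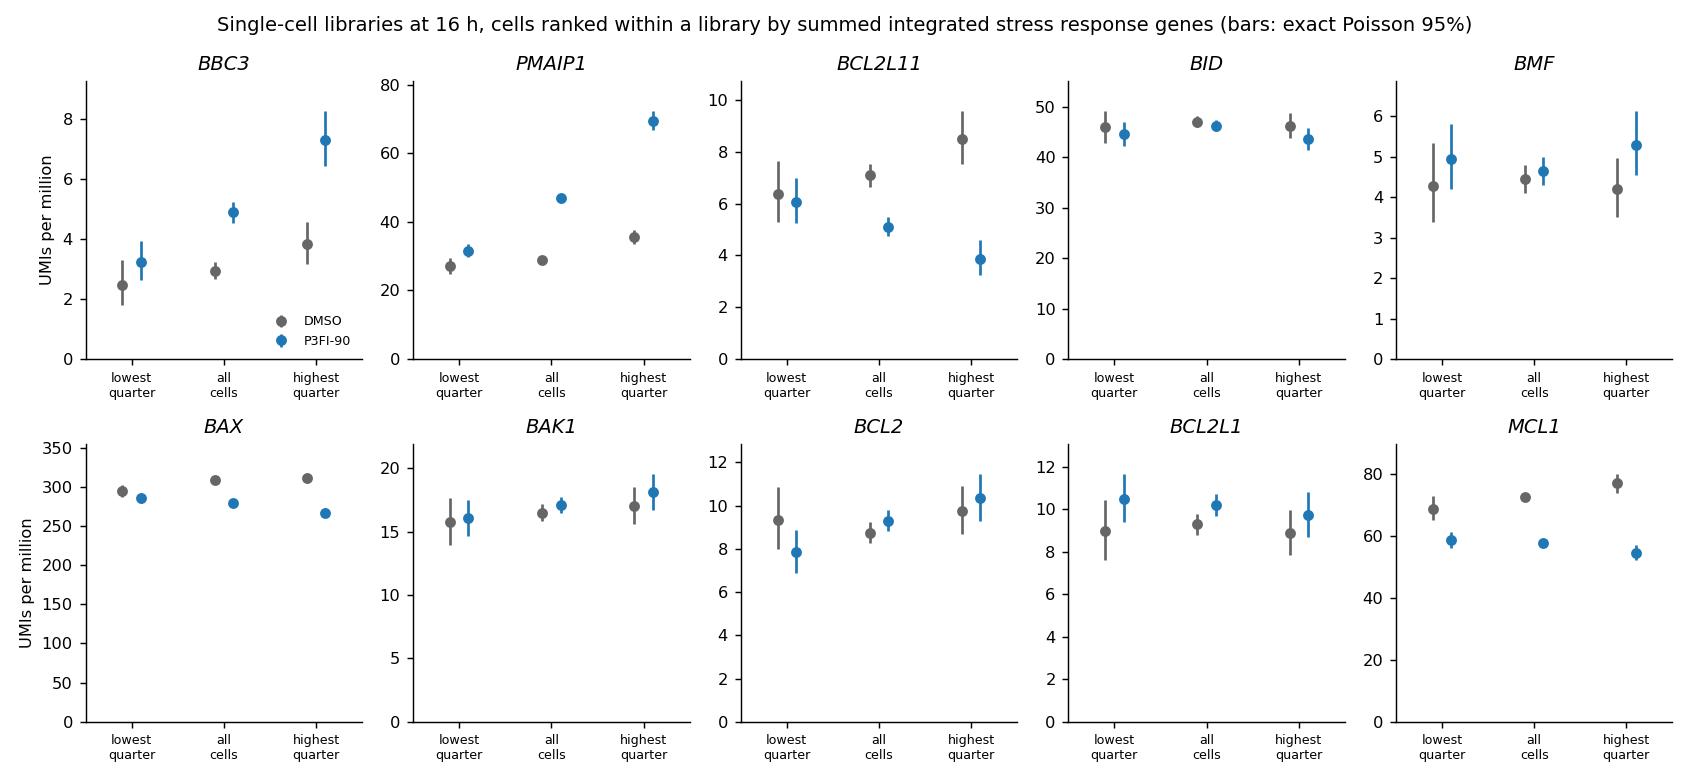
CPM (vertical axis, linear from 0) of each gene in the DMSO (grey) and P3FI-90 (blue) single-cell libraries at 16 h, over all cells and in the lowest and highest of 4 equal ranges of cells by integrated stress response genes, with 95% Poisson intervals that cover counting error only. PMAIP1 goes from 31.6 to 69.6 CPM across the P3FI-90 ranges and from 27.1 to 35.6 CPM across those of DMSO.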

How the data were processed

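The 10 genes, the lists compared with them and the tests were chosen with earlier results of these data known. All 10 members are named, and from each list the genes called by the test, the highest in level or those at 0 are named as examples.

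RNA was deposited as TPM: the authors aligned poly-A reads to hg19 with STAR and estimated expression with RSEM. Whether counting used strand is not given in the sources used here, and TPM keep no depth. Peak lists were called by the authors per library with MACS2 after BWA alignment, without blacklisted regions. They hold a fold enrichment (a ratio over background), a −log10 p and an integer score as deposited. Broad lists of H3K27me3 and of H3K9me2 replicate 1 reached lower −log10 p, so peaks of at least 3 were used in every list. The single-cell files are UMI counts deposited by the authors, from Cell Ranger 6.1.2.

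Groups were compared with limma 3.58.1 (R 4.3.3) with a mean-variance trend on log2(TPM + 1), over genes whose mean reached 1 TPM, with a Benjamini-Hochberg adjusted p under 0.05 over all genes tested. Such changes understate those of low genes. The 8 libraries of 24 h were fitted together and the 4 tumors apart. Single libraries were compared as log2 ratios at a threshold of 2-fold, with no test. The highest H3K4me3 fold enrichment within 2 kb of a start was tested with limma on the log2 scale and with exact permutation tests. Peaks were assigned with bedtools 2.31.1. Cells had at least 200 genes and under 15% mitochondrial UMIs, and ratios used genes with at least 100 UMIs in both libraries together. Intervals are 95% exact Poisson. Scripts ran in python 3.11.15 and were tested on simulated data.

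Replicate numbers follow the labels, and a library without one was called replicate 1. Same-numbered 24 h libraries shared a sequencing run by their file names and deviated from their group means together, by r of 0.571, 0.575 and 0.643 for DMSO with P3FI-90, 0.312 and 0.388 or 0.314 and 0.402 in the pairs with P3FI-63, and 0.407 to 0.631 for H3K4me3. Tumor numbers are names only. Alternatives were the pseudocount (0.1), no filter, median-ratio scaling, the replicate block, the 2 groups alone, each library left out, stricter peaks (−log10 p of 20), no cell filter and thinned cells. Hi-C files and the authors' own comparisons were not used. A value of 1 list gene is not reported here.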

Additional observations from a re-analysis of the deposited data

Results flagged for a closer look

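PMAIP1 and BCL2L1 moved one way in every 24 h run and the other way in both tumors after P3FI-90. They were picked by this rule, and how many of all genes met it was not counted. In tumors 4943 of 12357 genes lay below both controls, and the median log2 change of all genes was -0.30. PMAIP1 had a log2 change of 0.60 at 24 h, with within-run values of 0.20, 0.59 and 1.01, and of -0.078 in tumors, or 0.24 after median-ratio scaling. BCL2L1 had 0.47 at 24 h, with within-run values of 0.25, 0.47 and 0.69, and -0.35 in tumors, or -0.03 after scaling. None of these values passed the limma test, and the difference between cultured cells and tumors was not tested. Dose, time, host and sequencing run all differ between the 2 settings and cannot be told apart.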

How the results depend on the processing

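The 2 members called after P3FI-63 became 0 when only the 2 groups were fitted, and 0 to 2 when 1 library was left out: 0 without any DMSO or any P3FI-90 library, 1 without P3FI-63 replicate 4 and 2 without replicate 3. Over 14 alternatives the limma adjusted p was 0.00509 to 0.124 for PMAIP1 (6 past the threshold, log2 change 1.55 to 2.40) and 0.00187 to 0.124 for BMF (7 past it, -2.71 to -1.47). The direction of both was the same in all 14. The 0 members called in tumors ranged from 0 to 2 with 1 tumor left out, the 2 being without the first P3FI-90 tumor. At 6 h, a pseudocount of 0.1 put 1 member, BBC3, past 2-fold. With peaks of at least 20 on the −log10 p scale, members with a total Pol2 peak in DMSO went from 4 to 1, and those with serine 2 peaks from 2 to 1 in DMSO and from 4 to 1 after P3FI-90. The causes were not tested.

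The replicate block changed the call of no member. The counts over all genes moved more. After P3FI-63 292 genes were called (143 higher and 149 lower), 533 with scaling (333 and 200), 1358 with the block (333 and 1025), 1255 with both, a setting chosen after seeing the data (689 and 566), 68 with the 2 groups alone, and 67 to 4820 with 1 library left out. After P3FI-90 the count was 1, or 3 with the block, 2 with the 2 groups alone and 0 with scaling. In tumors it was 2, and 20 to 1870 with 1 tumor left out, and for H3K4me3 0, or 17 with the block. No paired analysis was possible for tumors because their numbers are names only, or for single libraries because they have 1 per group. A fit that leaves 1 library in a group assumes that it varies like the others. Leaving out the 48 h scrambled library, and P3FI-63 replicate 4 for gene lists and overlap, was also chosen after seeing the data. Depth is unknown for TPM, and in simulated data the 24 h fits found 4% of genes changed by 1 on the log2 scale.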
